A study of Mus musculus with 9 samples.

Results

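The neuronal immediate early genes described here are 10 genes taken by name, Fos, Fosb, Junb, Egr1, Egr2, Arc, Npas4, Nr4a1, Dusp1 and Ier2, out of 55450 genes counted in 9 RNA sequencing libraries of mouse substantia nigra. All 10 were found once each in the annotation and all 10 passed the filter on low counts, among 20892 genes tested. The study asked how synuclein made in microglia or in dopaminergic neurons alters nigral tissue, and nigral RNA was collected 5 weeks after bilateral lentiviral injection. The control group (CTR, 3 libraries) was CX3CR1-CreERT2 mice, whose Cre is active in microglia after tamoxifen, given a Cre-inducible vector for GFP, in a destabilized form. The CX3 group (3 libraries) was mice of the same CX3-Cre line given a Synuclein-expressing vector, and the DAT group (3 libraries) was DAT-Cre mice, whose Cre is driven in dopaminergic neurons, given that vector. Tamoxifen after surgery is described for CX3CR1-CreERT2 mice, so the driver line and the tamoxifen cannot be told apart in CX3 against DAT, nor these and the vector in DAT against CTR. The ages given are 8 weeks at transduction or 9 weeks at purchase, and how many animals gave each library is not stated. The p-values therefore measure the spread between these libraries, which may be technical. The vector's transgene is not among the mouse genes counted, so the labels were not checked by it.

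Immediate early genes are transcribed within minutes of a stimulus without new protein synthesis. In neurons, calcium entry and growth factor receptors act through MAP kinases and calcium-dependent kinases on factors already bound at their promoters, such as CREB and SRF. Several of the products (Fos, Fosb, Junb, Egr1, Egr2, Npas4, Nr4a1) are transcription factors that switch on later genes, Arc acts at synapses, and Dusp1 is a phosphatase that turns MAP kinases off again. The same genes also respond to stress and cytokines in glia and vessels, so bulk tissue does not tell which cells hold the transcripts, and fewer cells of a type and less RNA per cell cannot be told apart.

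Reads counted on genes ranged from 21592817 to 39475428 per library, and 3 counts, the smallest signal taken as countable, equalled 0.0779 to 0.151 CPM (counts scaled by edgeR's TMM library sizes, used throughout). This floor covers counting error only. The members were counted 17 to 56 times per library for Egr2, 61 to 246 for Fosb, 84 to 156 for Npas4, 188 to 372 for Ier2 and 395 to 2107 for the other 6 genes. CX3 replicate A and DAT replicate B stood apart from their groups. The squared difference in counts, relative to random sampling, was 1.46 to 1.80 between CTR libraries, at most 6.50 within CX3 and at most 16.5 within DAT, and 36.3 to 170.0 between groups.

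Per kilobase of exon, Junb was the highest member in all groups, and Fosb and Egr2 were the lowest pair. In CTR tissue, in CPM per kilobase (mean ± SD, n = 3 libraries), Junb stood at 11.5 ± 0.0506, Fos at 9.75 ± 0.324, Dusp1 at 8.72 ± 0.562, Arc at 6.76 ± 0.282 and Nr4a1 at 6.58 ± 0.225. Egr1 followed at 4.62 ± 0.118, Ier2 at 4.40 ± 0.365, Npas4 at 1.02 ± 0.202, Fosb at 0.557 ± 0.0593 and Egr2 at 0.382 ± 0.0792. Neighbours in this order had separate libraries except Arc and Nr4a1, and Egr1 and Ier2. In CX3 tissue Fos stood at the fifth place with 5.04 ± 0.280, where its libraries overlapped those of Ier2 and Egr1. In DAT tissue Arc, at 13.9 ± 0.337, moved to the second place and overlapped Junb at 14.7 ± 1.51.

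**Figure D1:**
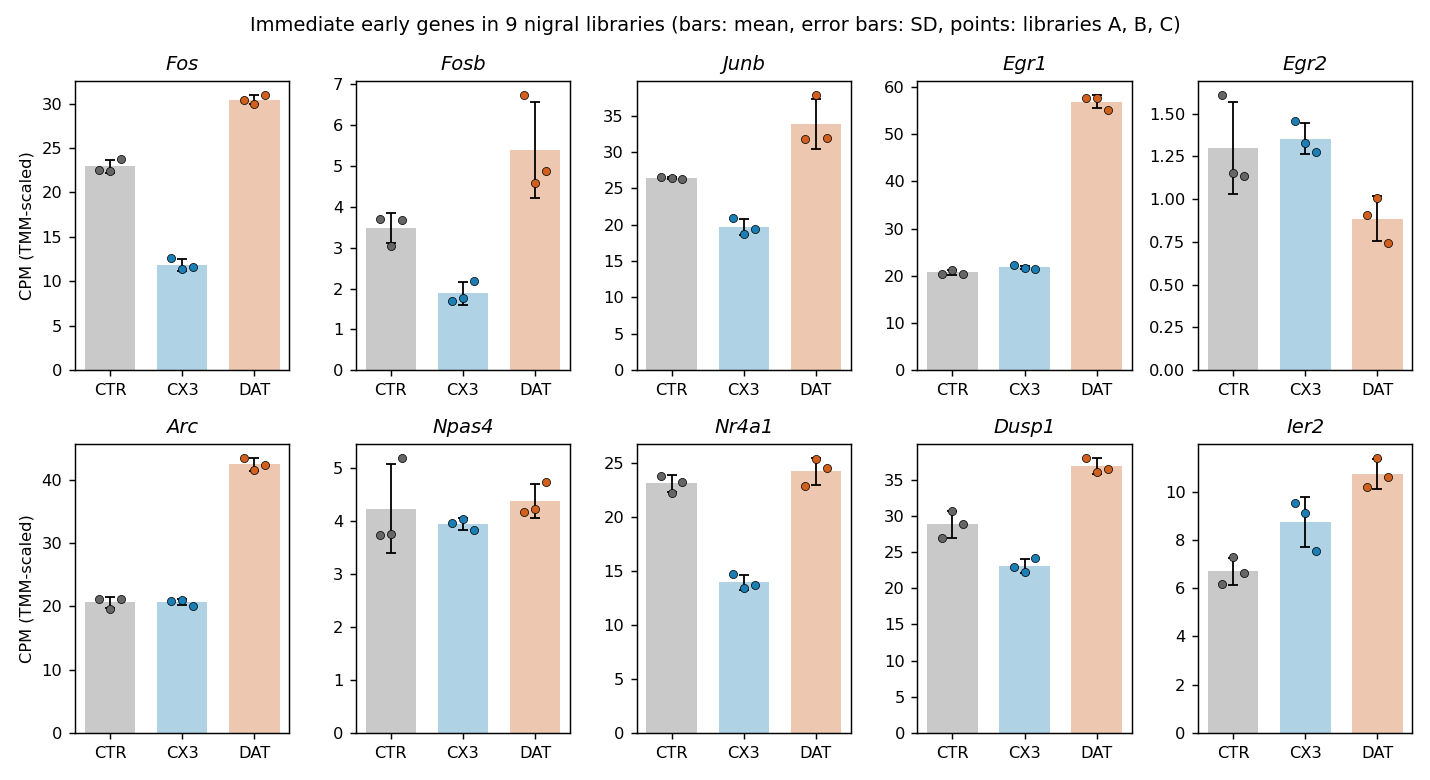
CPM (TMM-scaled, linear axes from 0) of the 10 genes in CTR, CX3 and DAT libraries, with bars for the group mean, error bars for the SD and points for libraries A, B and C. Fos, Fosb, Junb, Nr4a1 and Dusp1 had their 3 lowest libraries in CX3, while Egr1 and Arc lay at 19.7 to 22.2 in CTR and CX3 and at 41.5 to 57.8 in DAT, higher under every scaling tried.

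In CX3 against CTR, 5 of the 10 genes were called lower (Fos, Fosb, Junb, Nr4a1, Dusp1), where 16.5% of all genes tested were called lower, and 1 was called higher (Ier2), where 14.0% of all genes were. Their median log2 fold change was -0.21, against -0.0033 over all genes. The same 5 and 1 were called under each of 4 ways of scaling the libraries. Of all genes called, 45.9% were higher, and 58.9% with library size alone. Calls are edgeR quasi-likelihood tests with an adjusted p (Benjamini-Hochberg over all genes) under 0.05.

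In DAT against CTR, 7 of the 10 were called higher (32.0% of all genes) and 1, Egr2, lower (27.9% of all genes) on the TMM scale, but 2 higher and 6 lower when libraries were scaled to pan-neuronal genes. That scaling moved the median log2 fold change of all genes to -0.62 from -0.0038, and that of the 10 genes to -0.23 from 0.38. A change of scaling shifts all genes of a comparison by about the same amount. The distance between the 2 medians therefore could not change and is no test of the scaling. Of all genes called, 53.4% were higher, 37.8% with library size alone and 7.6% with pan-neuronal scaling. Scaling by library size alone moved the median of all genes to -0.15 in this comparison and to 0.20 in CX3 against DAT.

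In CX3 against DAT, 8 of the 10 were called lower (31.3% of all genes) and 1, Egr2, higher (27.6% of all genes) on the TMM scale, against 6 lower and 3 higher with pan-neuronal scaling and 7 lower with library size alone. The median log2 fold change was -0.78, against 0.010 over all genes, and with pan-neuronal scaling it was -0.20 against 0.59. Of all genes called, 46.8% were higher, 66.7% with library size alone and 90.5% with pan-neuronal scaling. CTR libraries are shared by the comparisons of CX3 and DAT with CTR, and DAT and CX3 libraries enter the third comparison again, so the 3 sets of values are not independent.

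**Figure D2:**
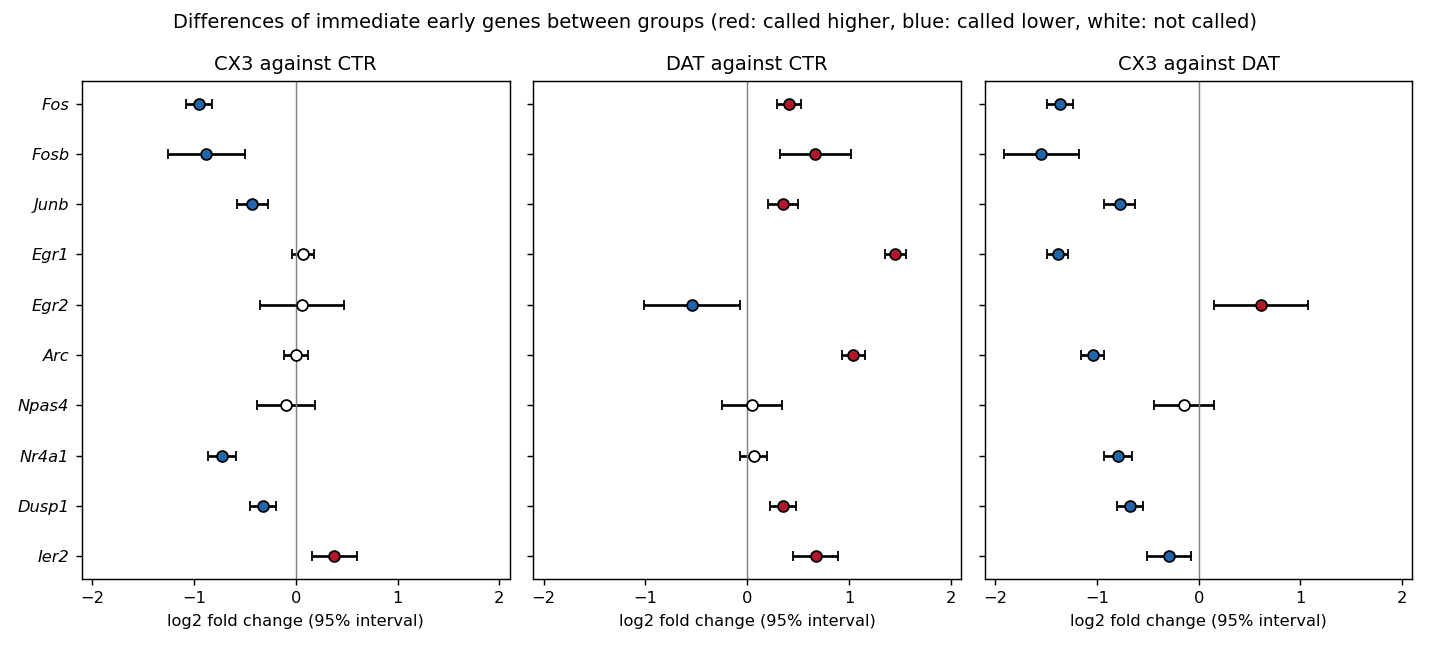
log2 fold changes (TMM) of the 10 genes with 95% intervals in the 3 comparisons, red for called higher, blue for called lower and white for not called. CX3 against CTR runs from -0.95 (Fos) to 0.38 (Ier2), and DAT against CTR from -0.55 (Egr2) to 1.46 (Egr1), where the values of Fos, Junb, Npas4, Nr4a1 and Dusp1 turn negative with pan-neuronal scaling.

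Cell type and regional markers moved with the groups, and the part that tissue composition has in the member values was not tested. The marker counts stand beside 14.0% of all genes called higher and 16.5% lower in CX3 against CTR. In DAT against CTR these shares were 32.0% and 27.9%. The summed level of 17 pan-neuronal markers (led by Snap25 and Map2) was 7368 to 7388 CPM in CTR, 7666 to 7724 in CX3 and 10764.5 to 11404 in DAT, with 15 called higher and 0 lower in DAT against CTR (6 and 8 when scaled to themselves) and 6 higher and 3 lower in CX3 against CTR. For 5 glutamatergic and GABAergic markers (Gad1, Gad2) the sums were 935 to 942, 866 to 904 and 1609 to 1730 CPM, with 4 called higher and 0 lower in DAT, and 1 (Slc17a7) higher and 3 lower in CX3. The 9 dopaminergic markers (Aldh1a1, Slc6a3), which mark dopaminergic neurons, summed to 852 to 861, 1038 to 1055 and 665 to 680 CPM. Of these, 6 were called higher in CX3, and 4 lower and 2 higher in DAT. In DAT the other scalings gave 0 higher, with 4 lower by DESeq2 size factors, 5 by library size alone and 9 by pan-neuronal scaling. All 7 astrocyte markers (Gfap, Slc1a2) were called lower in CX3, as were 7 of 10 microglial markers (such as Csf1r), of which 9 were called lower in DAT. In DAT, all 10 T cell markers (Cd8a, Trac) and all 7 tested infiltrating myeloid markers (Lyz2, Ly6c2) were called lower. In CX3, 5 T cell markers were called lower and 0 higher, with sums of 67.3 to 72.4 CPM against 82.0 to 85.2 in CTR, and 3 infiltrating myeloid markers were called lower and 1 higher.

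Markers of other regions, of vessels and of oligodendrocytes also differed. The choroid plexus and ependyma list (Ttr, Prlr) summed to 62.7 to 65.0 CPM in CTR, 1493 to 1605 in CX3 and 898 to 1068 in DAT, and the pituitary list (Pomc, Gh) to 61.3 to 64.0, 6.09 to 6.44 and 18.5 to 23.6. Called higher in DAT were 9 of 10 tested telencephalic markers (Prox1, Wfs1), 6 of 7 tested cerebellar and hindbrain markers (Cbln1, Pax6) and 8 of 9 thalamic and hypothalamic markers (Rora, Prkcd), against 2, 4 and 4 with pan-neuronal scaling. Called lower in DAT were 0, 1 and 0, and 2, 2 and 5 with that scaling. Those lists in CX3 had 0, 2 and 5 called higher and 2, 2 and 3 called lower. Of 8 endothelial markers, 5 were called higher and 1 lower in CX3, and 6 higher and 2 lower in DAT (4 and 4 with pan-neuronal scaling), where Flt1 was higher (0.97) and Slco1a4 lower (-0.23). Of 6 tested pericyte and smooth muscle markers, 3 were called higher and 1 lower in CX3, and 4 higher and 1 lower in DAT (2 and 4 with pan-neuronal scaling), where Acta2 was higher (0.41, but -0.21 with that scaling), Rgs5 was the lower gene (-0.79) and the list summed to 207 to 213 CPM against 218 to 223 in CTR. Of 8 oligodendrocyte markers, 4 were called lower and 2 higher in CX3, where Mbp was higher (0.14) and the list summed to 22272 to 22635 CPM against 21206 to 21280 in CTR, and 5 lower and 2 higher in DAT (8 and 0 with pan-neuronal scaling). No marker was at 0 in all 9 libraries.

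**Figure D3:**
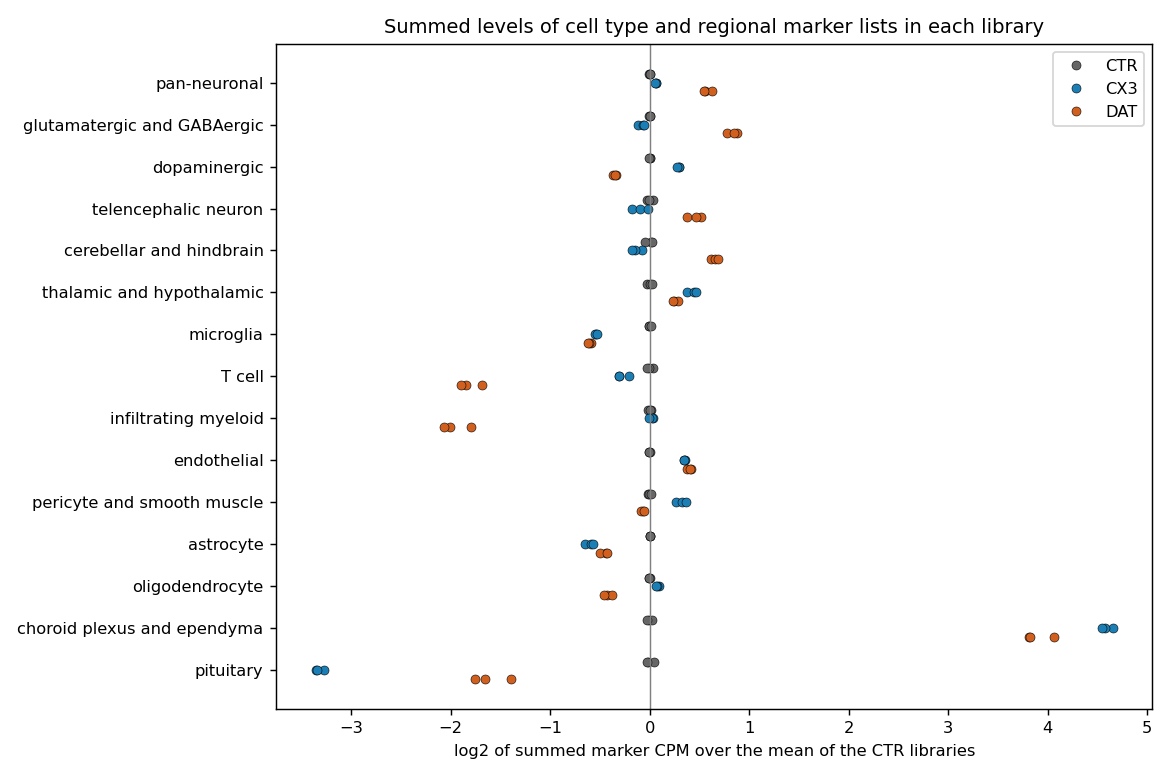
Summed CPM of each marker list in each library, as log2 over the mean of the CTR libraries, with CTR in grey, CX3 in blue and DAT in orange. The libraries of a group lie close together, and on this TMM scale the DAT sums are higher than CTR for the pan-neuronal and the glutamatergic and GABAergic lists, of which pan-neuronal scaling evens out the first, and lower for T cell and infiltrating myeloid lists.

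Fos (ENSMUSG00000021250.13, chromosome 12 from 85473890 to 85477273, GRCm38), which encodes a subunit of the AP-1 transcription factor, had 22.6, 22.4 and 23.8 CPM in CTR libraries A, B and C, 12.6, 11.4 and 11.6 in CX3 and 30.4, 29.9 and 31.0 in DAT. All CX3 libraries lay below and all DAT libraries above those of CTR. Fos fell by 0.95 on the log2 scale in CX3 against CTR (SE 0.060, adjusted p = 4.55e-08). DAT was 0.41 higher than CTR (SE 0.057, adjusted p = 2.38e-05), but -0.20 (adjusted p = 0.00898) with pan-neuronal scaling. Fos was lower in CX3 than in DAT under all 20 alternatives, by -1.42 to -0.77 on the log2 scale.

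Fosb (ENSMUSG00000003545.3, chromosome 7 from 19302696 to 19310051), a related AP-1 subunit, was a low transcript with 3.71, 3.05 and 3.67 CPM in CTR, 1.69, 1.76 and 2.19 in CX3 and 6.75, 4.58 and 4.87 in DAT. The groups did not overlap, and DAT replicate A was the highest library. The log2 fold change in CX3 against CTR was -0.88 (SE 0.18, adjusted p = 0.00194). For DAT it was 0.67 (SE 0.16, adjusted p = 0.0025), and 0.059 (adjusted p = 0.757) with pan-neuronal scaling.

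Junb (ENSMUSG00000052837.6, chromosome 8 from 84974484 to 84978718), a Jun-family partner in AP-1, had 26.6, 26.5 and 26.3 CPM in CTR, 20.9, 18.7 and 19.4 in CX3 and 31.8, 37.9 and 32.0 in DAT. Here too CX3 lay below and DAT above CTR in every library. The log2 fold change in CX3 against CTR was -0.43 (SE 0.071, adjusted p = 0.000434), and -0.18 on the reverse (adjusted p = 0.0756) and on the forward strand alone (adjusted p = 0.0805). Junb shares 173 exon bases (7.52%) with Prdx2 on the opposite strand, and reads of the 2 genes there cannot be told apart. In CTR, Junb had 2562 counts without strand, and 1783 forward and 1798 reverse, where Fos had 2217, 1052 and 1165. The shared reads thus enter the strand values of Junb but are left out of the column behind -0.43. Junb was 0.35 higher in DAT than in CTR (SE 0.070, adjusted p = 0.00061), but -0.26 (adjusted p = 0.00143) with pan-neuronal scaling.

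Nr4a1 (ENSMUSG00000023034.7, chromosome 15 from 101254269 to 101274795), an orphan nuclear receptor, had 23.8, 22.2 and 23.2 CPM in CTR, 14.7, 13.4 and 13.7 in CX3 and 22.8, 25.3 and 24.5 in DAT. CX3 stood below both other groups, which overlapped each other. Nr4a1 fell by 0.73 on the log2 scale in CX3 against CTR (SE 0.063, adjusted p = 1.17e-06) and was called lower in all 20 alternatives. DAT against CTR gave 0.065 (95% interval -0.068 to 0.20, adjusted p = 0.382) on the TMM scale and -0.55 (adjusted p = 2.17e-06) with pan-neuronal scaling.

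Dusp1 (ENSMUSG00000024190.7, chromosome 17 from 26505590 to 26562128), the MAP kinase phosphatase, had 27.0, 30.7 and 28.9 CPM in CTR, 22.9, 22.3 and 24.1 in CX3 and 38.1, 36.1 and 36.5 in DAT. The groups did not overlap. Dusp1 fell by 0.32 on the log2 scale in CX3 against CTR (SE 0.060, adjusted p = 0.00102), the smallest of the 5 falls. In DAT it was 0.35 higher (SE 0.059, adjusted p = 0.000135), but -0.26 (adjusted p = 0.00279) with pan-neuronal scaling. Against a fold of 1.2 in edgeR's threshold test, neither difference was called (adjusted p = 0.328 and 0.0541).

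The promoters of 4 of the 5 genes called lower in CX3 are shown because CREB-bound elements in them are the textbook route from calcium and cAMP to immediate early transcription. The RefSeq table on GRCm38.p6 matched 7 of the 10 genes (Fos, Fosb, Junb, Nr4a1, Dusp1, Egr2 and Npas4), and the promoters of Arc, Ier2 and Egr1 were not analysed here. The sequences run from 200 to 31 bases before the start, 5′ to 3′ in the direction of the gene. They lie outside annotated exons, that of Nr4a1 within the annotated gene, upstream of an internal start. Capitals mark the core of the cAMP response element, TGACG or its reverse complement CGTCA. Fos is at chr12:85473690-85473859 (plus strand), Fosb at chr7:19310076-19310245 (minus strand), Junb at chr8:84978779-84978948 (minus strand) and Nr4a1 at chr15:101266646-101266815 (plus strand).
Fos: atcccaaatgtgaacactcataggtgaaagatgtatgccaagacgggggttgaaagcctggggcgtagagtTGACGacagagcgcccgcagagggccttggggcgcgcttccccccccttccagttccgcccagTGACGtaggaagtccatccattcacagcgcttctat
Fosb: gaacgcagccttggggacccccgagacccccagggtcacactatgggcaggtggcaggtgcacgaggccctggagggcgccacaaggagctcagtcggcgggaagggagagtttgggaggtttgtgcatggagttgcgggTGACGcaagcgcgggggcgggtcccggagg
Junb: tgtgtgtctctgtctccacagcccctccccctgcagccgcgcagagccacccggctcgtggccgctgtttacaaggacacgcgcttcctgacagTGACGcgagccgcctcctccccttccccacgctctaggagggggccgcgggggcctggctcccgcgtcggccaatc
Nr4a1: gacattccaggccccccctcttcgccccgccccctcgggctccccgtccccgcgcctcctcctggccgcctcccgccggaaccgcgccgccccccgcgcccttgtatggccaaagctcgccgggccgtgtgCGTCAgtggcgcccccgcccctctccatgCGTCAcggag
The core began 129 and 66 bases before the start in Fos, 60 in Fosb, 106 in Junb, and 69 and 40 in Nr4a1. Over these 170 bases it was found in 9 of 11 promoters of the 7 genes, against 12.6% of 32851 promoters in the table. Each of the 7 genes had at least 1 such promoter, against 14.2% of 27025 genes. The Egr2 promoters with the core overlap each other and hold the same sites, so they are not separate finds. The windows of Npas4, of Dusp1 and of an Egr2 start overlap annotated exons. The full element, TGACGTCA, was found in Dusp1 and in 1.06% of all promoters. Npas4 and Egr2, which were not called in CX3 against CTR, held the core as well. These matches are a description of letters and no binding was measured.

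Egr1 (ENSMUSG00000038418.7), a zinc finger transcription factor induced by neuronal activity and growth factors, had 20.5, 21.3 and 20.4 CPM in CTR, 22.2, 21.7 and 21.4 in CX3 and 57.8, 57.7 and 55.3 in DAT. The CX3 libraries lay just above those of CTR, and DAT stood far above both. CX3 against CTR gave a log2 fold change of 0.070 (95% interval -0.041 to 0.18, adjusted p = 0.338). DAT against CTR gave 1.46 (SE 0.050, adjusted p = 2.07e-11), the largest value among the 10 genes, and 0.84 with pan-neuronal scaling.

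Arc (ENSMUSG00000022602.14, chromosome 15 from 74669083 to 74672570), whose protein regulates glutamate receptors at synapses, had 21.2, 19.7 and 21.1 CPM in CTR, 20.8, 21.1 and 20.1 in CX3 and 43.5, 41.5 and 42.3 in DAT. CTR and CX3 overlapped, and every DAT library was above 40. CX3 against CTR gave a log2 fold change of 0.0023 (95% interval -0.11 to 0.12, adjusted p = 0.98). DAT against CTR gave 1.04 (SE 0.053, adjusted p = 1.03e-09), and 0.43 (adjusted p = 2.03e-05) with pan-neuronal scaling. Egr1 and Arc were called higher in DAT in all 20 alternatives. Beside them, Slc17a7, a vesicular glutamate transporter, had 37.3, 38.3 and 35.4 CPM in CTR, 71.3, 67.9 and 71.5 in CX3 and 171, 147 and 163 in DAT. Its part in the levels of Egr1 and Arc was not tested.

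**Figure D4:**
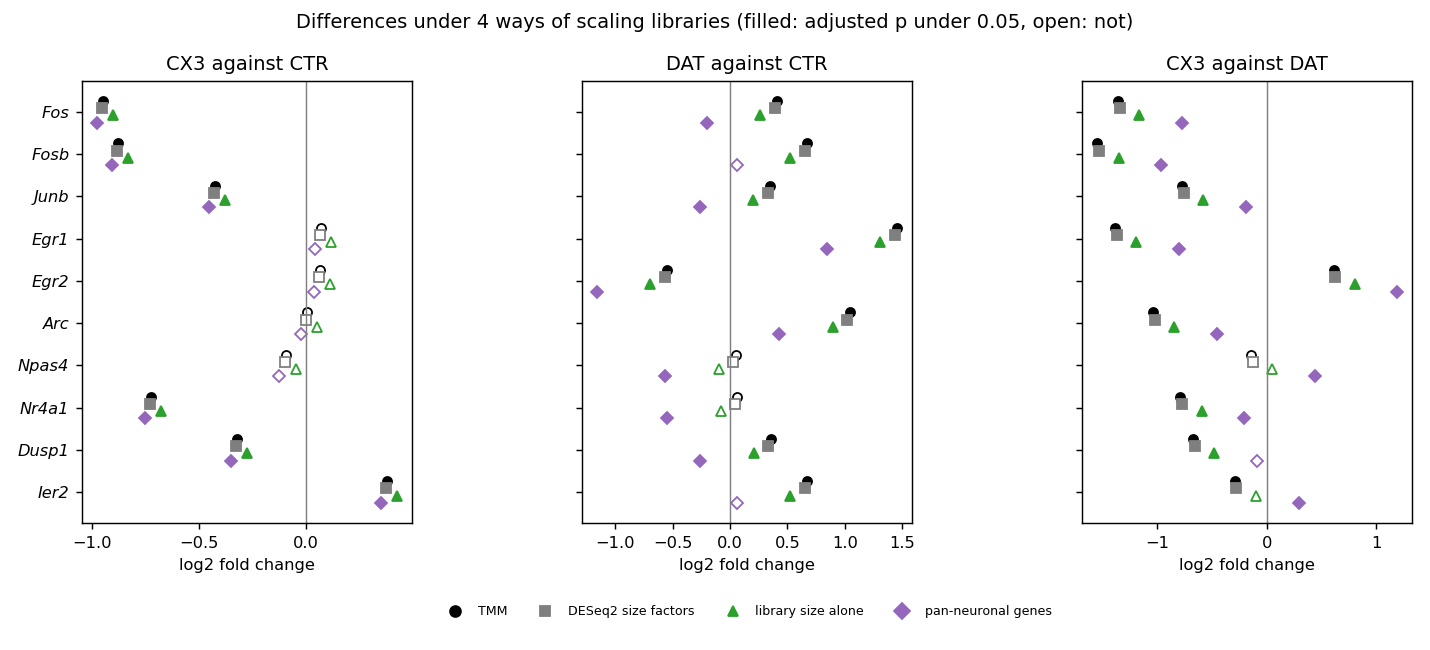
log2 fold changes of the 10 genes in the 3 comparisons with libraries scaled by TMM, by DESeq2 size factors, by library size alone and to pan-neuronal genes, filled where the adjusted p is under 0.05. In CX3 against CTR the 4 scalings lie close together, while in DAT against CTR pan-neuronal scaling lowers every gene and leaves Egr1 (0.84) and Arc (0.43) as the only genes called higher.

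Npas4 (ENSMUSG00000045903.9, chromosome 19 from 4984355 to 4990316), a transcription factor that responds to neuronal calcium rather than to growth factors, had 3.74, 3.76 and 5.20 CPM in CTR, 3.97, 4.04 and 3.83 in CX3 and 4.17, 4.22 and 4.74 in DAT. CTR overlapped both other groups, and CTR replicate C was the highest library. The log2 fold change was -0.096 (95% interval -0.38 to 0.19, adjusted p = 0.626) in CX3 against CTR. For DAT it was 0.048 (95% interval -0.25 to 0.34, adjusted p = 0.781), and -0.56 (adjusted p = 0.00243) with pan-neuronal scaling.

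Egr2 (ENSMUSG00000037868.15, chromosome 10 from 67535475 to 67542188), a paralogue of Egr1 also used by Schwann and immune cells, had 1.61, 1.15 and 1.13 CPM in CTR, 1.45, 1.33 and 1.28 in CX3 and 0.905, 1.01 and 0.746 in DAT. DAT was the lowest group in every library, the opposite order to Egr1. CX3 against CTR gave a log2 fold change of 0.065 (95% interval -0.35 to 0.48, adjusted p = 0.832). DAT against CTR gave -0.55 (SE 0.22, adjusted p = 0.0444), and -1.16 (adjusted p = 0.00023) with pan-neuronal scaling. It was called in 11 of 20 alternatives and lost without CTR replicate A (-0.39, adjusted p = 0.172), CX3 replicate B (0.0596), DAT replicate A (0.0866) or DAT replicate C (0.125). CX3 against DAT gave 0.61 (SE 0.21, adjusted p = 0.0241), and 1.19 (adjusted p = 0.000142) with pan-neuronal scaling. It was called in 15 of 20 alternatives and lost without CX3 replicate A (0.58, adjusted p = 0.056), DAT replicate A (0.0566) or DAT replicate C (0.0766).

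Ier2 (ENSMUSG00000053560.4, chromosome 8 from 84661331 to 84662852), a nuclear protein induced by serum and growth factors, had 6.17, 7.28 and 6.63 CPM in CTR, 9.53, 9.10 and 7.55 in CX3 and 10.2, 11.4 and 10.6 in DAT. CTR was the lowest group with no overlap, and Ier2 was the only member called higher in CX3. The log2 fold change in CX3 against CTR was 0.38 (SE 0.10, adjusted p = 0.0128), lost without CTR replicate A (0.32, adjusted p = 0.0663) or CX3 replicate A (0.31, adjusted p = 0.0534). For DAT it was 0.67 (SE 0.10, adjusted p = 7e-05), and 0.059 (adjusted p = 0.596) with pan-neuronal scaling. CX3 against DAT gave -0.29 (SE 0.10, adjusted p = 0.0206), which turned to 0.29 (adjusted p = 0.0136) with pan-neuronal scaling. It was lost with library size alone (-0.10, adjusted p = 0.405), with genes of at least 10 counts (-0.22, adjusted p = 0.0711), on the reverse (-0.086, adjusted p = 0.548) and on the forward strand (-0.32, adjusted p = 0.0694), against a fold of 1.2 (adjusted p = 0.32), and without CX3 replicate C (-0.18, adjusted p = 0.142) or DAT replicate C (-0.28, adjusted p = 0.0581).

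The direct comparison of CX3 with DAT gave log2 fold changes of -1.55 (SE 0.17, adjusted p = 2.65e-06) for Fosb, -1.39 (SE 0.049, adjusted p = 3.02e-11) for Egr1, -1.36 (SE 0.060, adjusted p = 2.3e-10) for Fos and -1.04 (SE 0.053, adjusted p = 9.51e-10) for Arc. For Nr4a1 it was -0.79, for Junb -0.78 and for Dusp1 -0.68, all called, and for Npas4 -0.14 (adjusted p = 0.383). These 7 called genes stayed lower in CX3 with pan-neuronal scaling, Dusp1 without passing the test (-0.092, adjusted p = 0.219). Ier2, also called lower on the TMM scale (-0.29), turned to 0.29 (adjusted p = 0.0136) with that scaling. Without CX3 replicate A or without DAT replicate B the count of members called lower remained 8.

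Other immediate early genes were read from a list of 40, of which 39 were tested. In CX3 against CTR the median log2 fold change of this list was -0.16. Called lower were 15 (16.5% of all genes) and called higher 0 (14.0% of all genes). Among them Arl4d, a small GTPase, had 29.0, 31.1 and 28.6 CPM in CTR and 13.9, 12.6 and 13.1 in CX3 (log2 fold change -1.17, adjusted p = 7.31e-08). Egr4, the fourth Egr factor, had 1.48, 1.35 and 0.933 CPM in CTR and 0.623, 0.491 and 0.703 in CX3 (-1.04, adjusted p = 0.00391). Nr4a3, a paralogue of Nr4a1, differed by -0.86 (adjusted p = 0.000674) and Per1, a clock gene with cAMP response elements, by -0.71 (adjusted p = 1.11e-06). These 4 were named for the largest called changes without overlap between the groups.

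The same list in DAT against CTR had 16 called higher (32.0% of all genes) and 10 lower (27.9% of all genes). These counts turned to 1 higher and 27 lower with pan-neuronal scaling and to 13 higher and 14 lower with library size alone. The median of the list was 0.12, and -0.49 with pan-neuronal scaling. Egr4 reached 3.43, 2.82 and 2.94 CPM (1.30, adjusted p = 4.36e-05) and was the gene still called higher with pan-neuronal scaling (0.69, adjusted p = 0.00574). Jund differed by 0.78 (adjusted p = 5.6e-05), and 0.16 (adjusted p = 0.185) with pan-neuronal scaling. Lower in DAT were Dusp2, a phosphatase of activated immune cells, by -1.68 (adjusted p = 5.42e-07), and Atf3, a stress-induced factor, by -1.13 (adjusted p = 3.37e-05). In CX3 against DAT, 20 were called lower (31.3% of all genes) and 7 higher (27.6% of all genes). With pan-neuronal scaling, 6 were called lower and 24 higher. Egr4 (-2.34), Dusp4 (-1.16) and Sik1 (-1.03) were lower and Dusp2 (1.14) higher in CX3 on the TMM scale.

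Activity-regulated effector genes, the later targets, were 28 tested of 29, with Homer1 also in the preceding list. Against CTR, CX3 had 10 called lower (16.5% of all genes) and 6 higher (14.0% of all genes), with a median of -0.077. Vgf, a neuropeptide precursor, had 139, 138 and 139 CPM in CTR, 93.1, 86.4 and 86.2 in CX3 and 354, 379 and 328 in DAT. It differed by -0.65 in CX3 (adjusted p = 8.82e-07) and by 1.35 in DAT (adjusted p = 9.16e-11), where it kept 0.74 with pan-neuronal scaling. Tac1, the precursor of substance P, differed by -0.45 in CX3 (adjusted p = 0.00183), Plat by -0.43 (adjusted p = 5.15e-06) and Ptgs2 by 0.64 (adjusted p = 0.000462). For DAT, 15 were called higher (32.0% of all genes) and 4 lower (27.9% of all genes), and 5 and 18 with pan-neuronal scaling. Acan (1.54), Nefm (1.27) and Nptx1 (1.14) stayed higher under that scaling, at 0.93, 0.65 and 0.53. In CX3 against DAT, 18 were called lower (31.3% of all genes) and 8 higher (27.6% of all genes), and 7 and 14 with pan-neuronal scaling.

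Signalling proteins and factors that act upstream of immediate early genes were 36, all tested. Of these, 27 were not called in CX3 against CTR, 6 were called higher (14.0% of all genes) and 3 lower (16.5% of all genes). The median of the list was 0.062. Grin2c, an NMDA receptor subunit, differed by 0.45 (adjusted p = 2.24e-05), Crtc1, a CREB coactivator, by 0.32, Cacna1c, an L-type calcium channel, by 0.31 and Map2k1, the kinase of ERK, by -0.30 (adjusted p = 5.61e-05). Against CTR, 26 were called higher (32.0% of all genes) and 4 lower (27.9% of all genes) in DAT, with a median of 0.41. With pan-neuronal scaling, 8 were called higher and 18 lower in DAT (median -0.20). In DAT on the TMM scale, Rps6ka2 (1.11), Grin2b (1.00) and Grin1 (0.97) were higher and stayed so with pan-neuronal scaling, at 0.50, 0.39 and 0.35. Mef2b, at 0.788, 0.577 and 0.567 CPM in CTR, was lower in DAT (-1.82). In CX3 against DAT, 24 were called lower (31.3% of all genes) and 6 higher (27.6% of all genes), and 5 and 21 with pan-neuronal scaling.

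**Figure D5:**
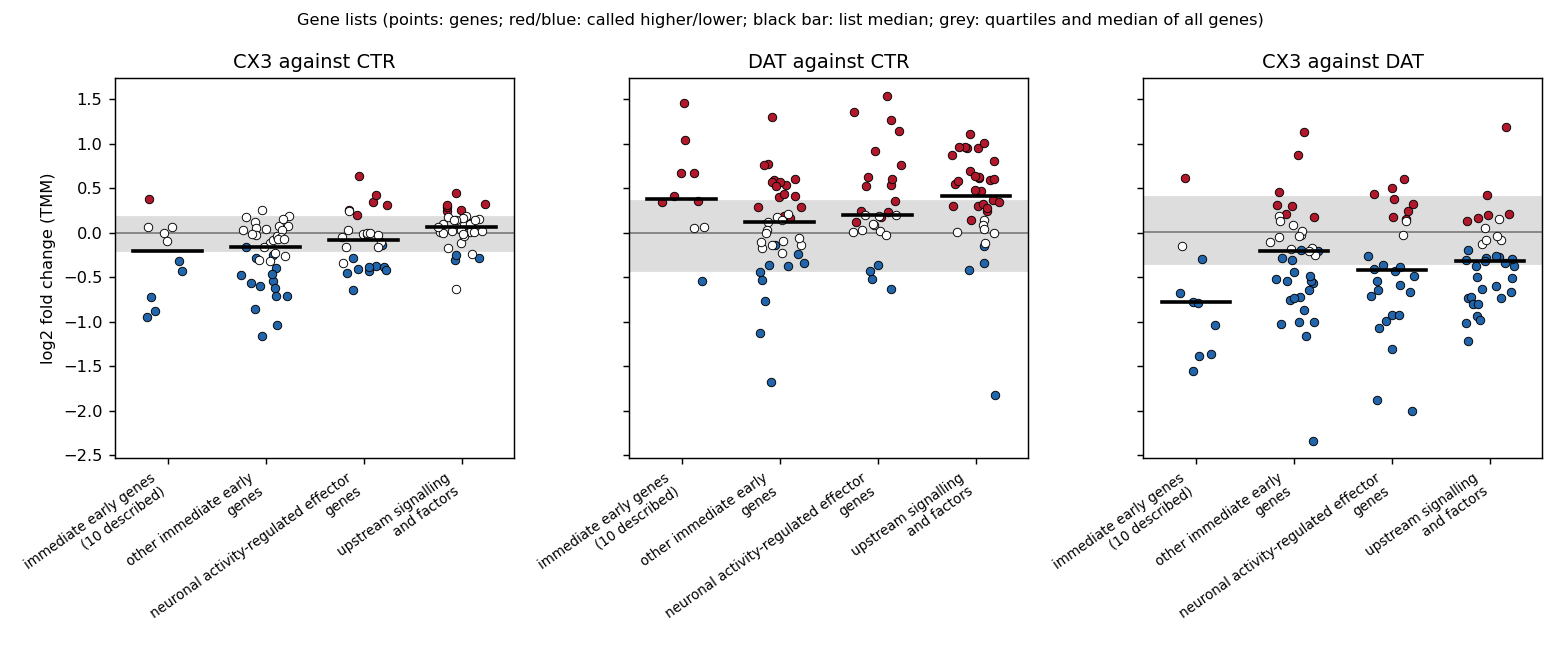
log2 fold changes (TMM) of the 10 genes, 39 other immediate early genes, 28 activity-regulated effector genes and 36 upstream genes, with red for called higher, blue for called lower, a black bar for the list median and a grey band for the quartiles of all 20892 genes. In CX3 against CTR the median of the 10 genes is -0.21 and that of the upstream genes 0.062. In DAT against CTR all 4 medians are above 0, and all 4 fall below 0 with pan-neuronal scaling.

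The mean standardised log2 CPM of the 10 genes was -0.79 to -0.58 in CX3, -0.22 to 0.071 in CTR and 0.76 to 0.87 in DAT. Over the 9 libraries, which fall into 3 groups, the genes most like it by Pearson's r among 16261 others of at least 1 CPM were Klf5 (0.994), Steap3 (0.993), Bag3 (0.992), Ass1 (0.992) and Prmt5 (0.992), and 822 genes had an r of at least 0.95. Klf5, a Krüppel-like transcription factor, had 3.45, 3.02 and 3.90 CPM in CTR, 2.31, 2.05 and 2.29 in CX3 and 5.98, 6.74 and 6.10 in DAT. Bag3, a cochaperone of the heat shock response, had 17.3, 17.9 and 18.9, then 13.5, 12.8 and 13.1, then 28.3, 29.7 and 31.0 CPM.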

How the data were processed

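The authors trimmed reads with Trimmomatic, aligned them with STAR to mm10 and deposited raw counts of reads on each gene, not normalized. The submitters' notes name featureCounts, while the columns are those that STAR writes when it counts genes itself. All 55450 identifiers belong to GENCODE M21. A stranded kit is described, but the reverse strand held 49.8 to 49.9% of strand-specific counts, so the column without strand was used. Reads not assigned to a gene (30.5 to 35.9%) were left out. Mapped reads on no annotated gene were 7.47 to 7.61% in CTR, 6.39 to 7.73% in CX3 and 4.15 to 4.31% in DAT. Unmapped reads were 19.0% in CX3 replicate A, and 13.9 and 13.8% in CX3 replicates B and C. The part of these in the member values was not tested.

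Groups came from the labels' genotype. Genes passing filterByExpr were scaled by TMM and tested in all 9 libraries with edgeR 4.0.16 quasi-likelihood (R 4.3.3), checked on simulated data. SE is the log2 fold change over the square root of F. DESeq2 1.42.0, other scalings, filters, strands, a fold threshold of 1.2, left-out libraries and a replicate block were alternatives. Pan-neuronal scaling divides by the geometric mean of 17 neuronal genes.

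The members and gene lists were chosen with earlier results of these data known. From each pathway list, up to 4 genes per comparison with the largest called change and no overlap between groups were named, from each marker list the 2 most abundant (for microglia and oligodendrocytes 1 of them is not reported here), and the 5 genes most like the members. Slc17a7 and Slc17a6 were named after their values were seen. Older symbols absent from the annotation were replaced by current ones.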

Additional observations from a re-analysis of the deposited data

Results flagged for a closer look

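Fos, Fosb, Junb and Dusp1 were called lower in CX3 and higher in DAT, each against CTR on the TMM scale (in DAT, pan-neuronal scaling turned Fos, Junb and Dusp1 lower and left Fosb uncalled), and the direct test of CX3 against DAT gave log2 fold changes of -1.36 (adjusted p = 2.3e-10), -1.55 (adjusted p = 2.65e-06), -0.78 (adjusted p = 3.7e-07) and -0.68 (adjusted p = 2.62e-07) by edgeR's quasi-likelihood test. With libraries scaled to pan-neuronal genes these differences were -0.77, -0.97, -0.19 and -0.092, of which the last was not called. CX3 libraries were lower than DAT libraries in 3 of 3 against 3 of 3 for each gene. Genes were flagged here if called in opposite directions against CTR and also called in the direct test. The direct calls and their direction follow from that rule and are no separate evidence.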

How the results depend on the processing

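Of 840 values recomputed under 20 alternatives, 750 kept their direction and their side of the threshold. With glmTreat against a fold of 1.2, members called were 3 in CX3 against CTR (0 higher, 3 lower) of 1763 genes called, and 5 in DAT against CTR (0 lower) of 8228 genes called, and 0 members were called higher in CX3 against DAT among 7989 genes called, against 6367, 12520 and 12311 genes without a fold threshold. The count of members called higher in CX3 against CTR was 0 in forward strand counts and 0 to 1 with a library left out. The count called lower in DAT against CTR was 0 with genes of at least 1 count, with DESeq2's test and on either strand, 0 to 1 with a library left out, and 6 with pan-neuronal scaling, where 2 were called higher. In CX3 against DAT, 3 were called higher with pan-neuronal scaling, 0 on the reverse strand and 0 to 1 with a library left out. Where a library, a gene filter, a strand or DESeq2 changed these counts, the cause was not tested.

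With pan-neuronal scaling the log2 fold change in DAT against CTR reversed for Fos (-0.20), Junb (-0.26), Npas4 (-0.56), Nr4a1 (-0.55) and Dusp1 (-0.26), and in CX3 against DAT for Npas4 (0.44) and Ier2 (0.29). The other reversals were of values not called. Arc in CX3 against CTR was -0.0022 with DESeq2 size factors, -0.0020 with DESeq2's test, -0.026 with pan-neuronal scaling, -0.034 on the forward strand and -0.035 to 0.023 with a library left out. Egr2 in CX3 against CTR was -0.16 on the reverse strand and -0.022 to 0.24 with a library left out, and Npas4 -0.18 to 0.069. In DAT against CTR, Npas4 was -0.098 with library size alone, -0.025 with genes of at least 10 counts, -0.23 on the forward strand and -0.057 to 0.20 with a library left out. Nr4a1 there was -0.082 with library size alone, -0.0091 with genes of at least 10 counts and -0.046 on the reverse strand. Npas4 in CX3 against DAT was 0.049 with library size alone and 0.084 on the forward strand.

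Replicate letters did not pair the libraries. The deviations of same-letter libraries from their group means correlated at -0.42 to 0.21, those of other letters at -0.40 to 0.50. The value of 0.50 was that of CX3 replicate A with DAT replicate B, which both stood apart from their groups. Its cause was not tested. With the letters as a replicate block, 6, 8 and 9 members and 5805, 12144 and 11955 genes were called, and no member's call changed. Egr2 had the fewest counts of the members, 17 to 56 per library, and their part in its calls was not tested.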
